A study of Mus musculus with 78 samples.

Results

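Lungs of mice kept awake for the first 6 h of the light period were compared with lungs of mice left to sleep for the same 6 h. The members were the arrays labelled as 6 h of sleep deprivation (SD, 9 arrays) and 6 h of spontaneous sleep (SS, 7 arrays), which together are 16 of the 78 lung arrays in the series. All animals were male C57BL/6 J mice of 10 ± 1 weeks that had been fed only in the dark period for 14 days beforehand, so no group had food during the 6 h. Sleep loss began at lights-on and was enforced by gentle handling, and the mice were killed by cervical dislocation. The labels say only that the arrays are separate samples, and the study describes them as biological replicates. The p-values measure the spread between arrays, in the main fit pooled over the SD and SS arrays at 3, 6, 9 and 12 h. Arrays outside the 6 h groups came from the same protocol at 3, 9 and 12 h and from baseline mice taken at lights-on. Sleep was scored from beam breaks rather than from the electroencephalogram, and the sleeping mice were also awake for part of the time. Sleep and rest, and sleep loss and the handling that enforced it, cannot be told apart here. In whole lung, fewer cells of a type and less RNA per cell cannot be told apart either.

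Every value is a robust multi-array average (RMA) level on the log2 scale, so a difference of 1 is a doubling, and 35556 probe sets were measured, of which 21218 carried a single gene symbol and covered 18820 genes. The labelled tissue bore its defining markers, since Ager, a marker of alveolar type 1 cells, lay between 11.83 and 12.21 on the 16 arrays and Sftpd, a surfactant protein, between 11.58 and 12.23. The arrays carry running numbers, and laying the order of conditions along those numbers put 15 arrays of the series on a condition other than their label. All 15 were nearest to the condition of their number when each array was compared with the means of the others over 200 probe sets. The places of the absent numbers in that order were set with the values known. Arrays 80 and 81 had no place in the order. Array 81 was nearest to a group other than its own and was left out, and array 80, labelled SS at 6 h, was nearest to its own group and was kept. Of the 62 arrays kept, 59 were nearest to their own group. Of the 16 arrays left out, 3 belonged to the 6 h groups. They were arrays 51 and 74, labelled SD and nearest to baseline and to SS at 3 h, and array 66, labelled SS and nearest to SD at 3 h. The other 13 arrays of the 6 h groups were all nearest to their own label. Labels were never changed. Leaving out the 16 arrays leaves 7 SD and 6 SS arrays at 6 h. The main results are given both ways, and a value given in 1 form only is without the 16 arrays unless it is said to be as labelled. A gene said to rise or fall was higher or lower in SD than in SS, whatever its baseline level.

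The clock gene Npas2, which encodes a partner of the core clock activator Arntl, shows how the 3 arrays stood. In the 7 baseline arrays left it ran from 9.81 to 10.08. In the 7 SD arrays left it ran from 7.56 to 8.02 and in the 6 SS arrays left from 7.13 to 7.40. Array 51 was at 9.83, array 74 at 9.23 and array 66 at 9.61, so that all 3 lay far above both 6 h groups.

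Arrays 79 and 80, both labelled SS, held liver transcripts. The mean level of a list of 21 liver genes stood 4.93 and 4.05 above the mean of all arrays on them, against 2.59 on SD array 50 and between -1.10 and 1.07 on the other 13. Apoa1, which encodes the main protein of high-density lipoprotein, was at 12.69 and 11.94 on arrays 79 and 80 and between 5.39 and 10.19 on the rest. For several lists and genes the value without these arrays is given as well. Other values include them. The levels of skeletal muscle genes (from -1.13 to 2.86 in SD and from -1.13 to 2.14 in SS) and of oesophagus and epidermis genes (from -1.08 to 2.69 and from -1.22 to 2.38) also ranged widely, in both groups alike. Brown and white fat genes ran from -0.81 to 0.37 in SD (median -0.27) and from -0.14 to 1.21 in SS (median 0.32). Of the 19 fat genes 0 passed in the limma fit and 4 were lower in SD at an unadjusted p under 0.05. Their median difference was -0.34, and 3 were above 0.

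Several systems that answer to waking and stress set the background for the comparison. Corticosterone, the adrenal hormone of stress and of the active phase, binds the glucocorticoid receptor, which enters the nucleus and switches on genes such as Fkbp5 and Tsc22d3. Unfolded proteins in the cytosol release heat shock factors that induce chaperones, while unfolded proteins in the endoplasmic reticulum (ER) induce a separate set of folding factors. Cirbp and Rbm3 encode RNA-binding proteins whose transcripts rise when body temperature falls, and body temperature falls in sleep.

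With the arrays as labelled, 2 genes were higher and 3 lower in SD at a limma adjusted p under 0.01, which is 0.0106% and 0.0159% of the 18820 genes tested. At an unadjusted p under 0.05 there were 3689 probe sets. With the 16 arrays left out, 454 genes were higher (2.41%) and 216 lower (1.15%). All 657 representative probe sets that then passed had the same sign with the arrays as labelled, 626 of them at an unadjusted p under 0.05. With arrays 79 and 80 also left out, 146 genes were higher (0.776%) and 75 lower (0.399%), and 208 of the 657 probe sets still passed, and 0 turned their sign. These fits share most of their 6 h arrays, and the 657 were picked by one of them. Agreement in sign between the fits is therefore not an independent check. As labelled, single arrays decided the counts. Leaving out array 66 gave 38 genes higher and 25 lower, array 74 gave 19 and 13, array 51 gave 10 and 9 and array 63 gave 10 and 16, while leaving out any of the other 12 gave 0 higher and 1 to 4 lower.

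The 5 genes that passed as labelled were Mapt, Tspan11, Egr1, F8 and Rnf152. Mapt, which encodes the microtubule-binding protein tau, ran from 9.38 to 9.71 in the 9 SD arrays (median 9.51) and from 9.06 to 9.38 in the 7 SS arrays (median 9.17), and was 0.31 higher in SD (SE 0.06, limma adjusted p 0.00734), and 0.38 higher without the 16 arrays. Tspan11, which encodes a membrane tetraspanin, ran from 9.41 to 10.07 (median 9.93) against 8.79 to 9.86 (median 9.17) and was 0.58 higher (SE 0.11, limma adjusted p 0.00734). The SS value of 9.86 was that of array 66, and without the 16 arrays the groups no longer overlapped and the difference was 0.80 (SE 0.07, limma adjusted p 1.07e-10). The SS mean of Tspan11 was then 9.17, and 9.27 without arrays 79 and 80 as well. F8, the clotting factor VIII gene that liver endothelium expresses strongly, was the only one of the 5 whose groups did not overlap as labelled, with SD arrays between 6.01 and 6.43 and SS arrays between 6.48 and 8.25. Its highest SS values, 8.25 and 7.35, were those of arrays 79 and 80, and the difference went from -0.82 without the 16 arrays to -0.45 without arrays 79 and 80 as well (limma adjusted p 0.0535). Rnf152, a ubiquitin ligase gene, behaved likewise, at -0.55 and then -0.33 (limma adjusted p 0.124).

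**Figure D1:**
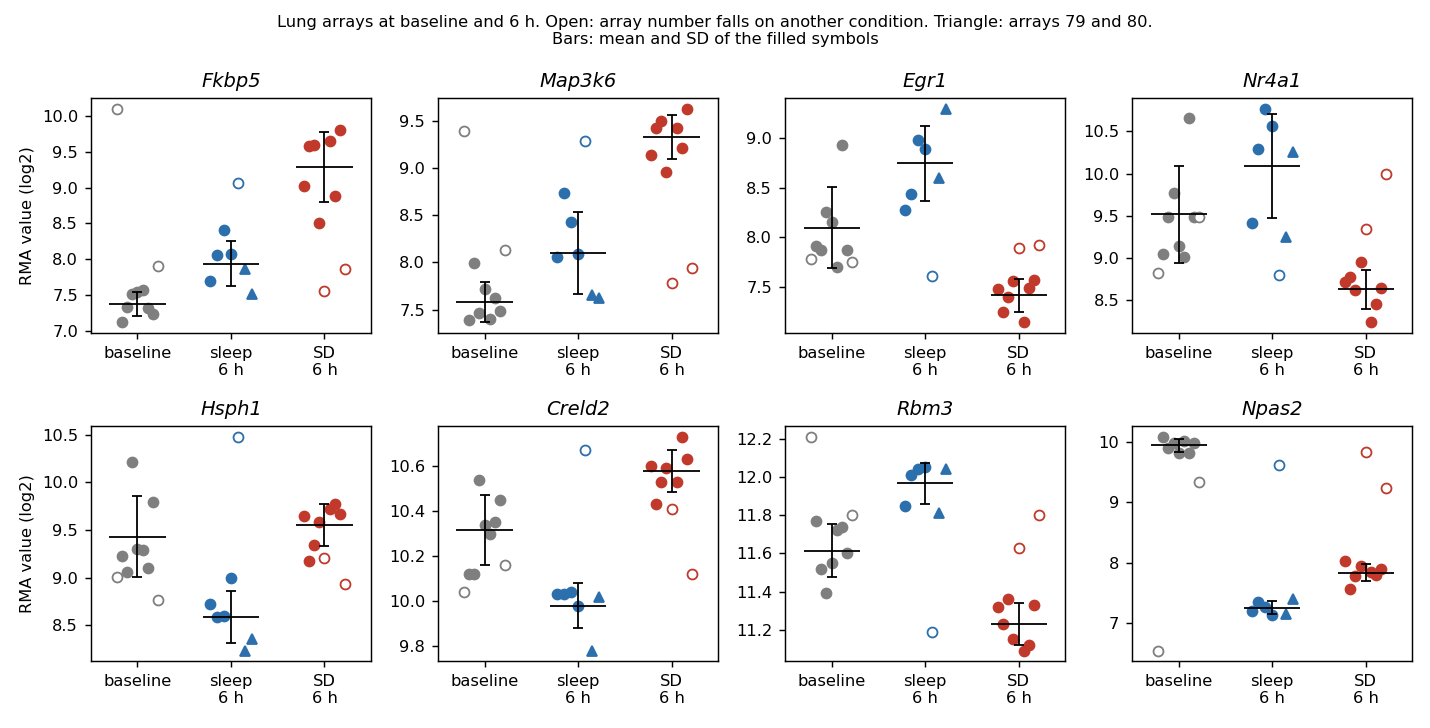
RMA level (log2, y axis) of 8 genes on each array of the baseline, SS 6 h and SD 6 h groups. Filled symbols are arrays kept, open symbols are arrays whose number falls on another condition, triangles are arrays 79 and 80, and bars are the mean and SD of the filled symbols. In these 8 genes the filled SD and SS symbols do not overlap, and the open SS symbol, array 66, lies outside the range of the filled SS symbols. The 8 were picked from the genes of the text, and others there, such as Tsc22d3, Hspb1 and Hspa5, overlapped between the groups. The share of all genes without overlap was not counted.

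Genes known to be induced through the glucocorticoid receptor were higher after 6 h of sleep loss once the 16 arrays were left out. Of the 26 measured members of the list, 14 were higher and 0 lower, where 2.41% of all genes were higher, and the median difference was 0.47 against 0.01 over all genes. This list and the others were chosen with earlier results of these data known, so a list's share of calls is not an independent test. As labelled, 0 members passed and the median was 0.23. Without arrays 79 and 80 as well, 12 of the 26 were higher and the median was 0.38. The mean level of the list lay between -0.01 and 0.48 in the 7 SD arrays left and between -0.56 and -0.02 in the 6 SS arrays left, so the groups did not overlap.

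Zbtb16, which encodes a zinc finger repressor, had the largest increase among the genes that passed without the 16 arrays. It ran from 8.84 to 11.75 in the 9 SD arrays (median 11.49) and from 9.35 to 11.37 in the 7 SS arrays. Arrays 51 and 74 gave the lowest SD values, 8.84 and 9.83, and array 66 the highest SS value. With the 16 arrays left out, SD lay between 11.07 and 11.75 and SS between 9.35 and 10.51, with no overlap, a difference of 1.60 (SE 0.21, limma adjusted p 1.01e-06), or 3.04-fold. As labelled the difference was 0.92 (limma adjusted p 0.149). Arrays 79 and 80 were the lowest SS arrays kept, and without them the SS mean went from 9.84 to 10.09. The baseline arrays left, from 8.48 to 9.12, lay below every SD and SS array kept.

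Fkbp5, a co-chaperone that damps the glucocorticoid receptor, ran from 7.56 to 9.80 in SD (median 9.02) and from 7.52 to 9.06 in SS (median 8.06). Without the 16 arrays the ranges were 8.50 to 9.80 and 7.52 to 8.41 and did not overlap. The difference was then 1.35 (SE 0.17, limma adjusted p 3.21e-07), or 2.55-fold, against 0.84 (limma adjusted p 0.193) as labelled. It was 1.11 within the run of consecutive array numbers from 36 to 66 and 1.75 within the run from 67 to 80. In the latter run the only SS arrays were arrays 79 and 80, which held liver transcripts and stood at 7.87 and 7.52 for Fkbp5. The 7 baseline arrays left lay between 7.12 and 7.57, below every SD array kept and below all but the lowest SS array kept. The baseline mean was 7.38 and the SS mean 7.94.

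Map3k6, which encodes a stress kinase, ran from 8.96 to 9.63 in the 7 SD arrays left and from 7.62 to 8.74 in the 6 SS arrays left, a difference of 1.23 (SE 0.14, limma adjusted p 6.3e-08). Without arrays 79 and 80, its lowest SS arrays, the SS mean went from 8.10 to 8.33. Fam107a, which encodes an actin-binding protein induced by glucocorticoids in brain and which was not on the list, ran from 8.48 to 9.59 against 7.36 to 7.81, a difference of 1.59 (SE 0.15, limma adjusted p 1.59e-10). In both genes the groups did not overlap. As labelled the differences were 0.73 and 1.05, with limma adjusted p of 0.15 and 0.0889. Of the other largest increases, Mettl21e, a muscle methyltransferase gene, stood at 1.34 and Slc6a2, the noradrenaline transporter gene, at 0.99.

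Among the other members, Angptl4, an inhibitor of lipoprotein lipase, rose by 1.10 (SE 0.14), and Cdkn1a, the cell cycle inhibitor p21, by 1.08 (SE 0.13). Cdkn1a lay between 10.59 and 11.10 at baseline, between 9.88 and 10.75 in SS and between 11.13 and 11.62 in SD, so the baseline arrays lay below every SD array and overlapped SS. Tsc22d3, which encodes the glucocorticoid-induced leucine zipper, rose by 0.78 (SE 0.11), although 1 SD array, at 9.77, lay below the highest SS array, at 9.90. The further members that passed, named after their values were seen, were Hif3a (0.97), Sult1a1 (0.71), Ddit4 (0.71), Cebpd (0.64), Klf15 (0.54), Nfkbia (0.42), Klf9 (0.40) and Tsc22d1 (0.13). As labelled, Angptl4 was at 0.76, Cdkn1a at 0.79 and Tsc22d3 at 0.44 (limma adjusted p 0.0932, 0.0374 and 0.286). Without arrays 79 and 80, Ddit4 (0.62), Cebpd (0.42) and Tsc22d1 (0.11) lost the call and Mt2, a metallothionein gene, gained it (0.56, limma adjusted p 0.00386). With them, Mt2 was at 0.40 (limma adjusted p 0.0248). Among members that did not pass, the clock repressor gene Per1 was at 0.51 (SE 0.14, limma adjusted p 0.0255), Sgk1, a kinase of sodium transport, at 0.13 and Dusp1, a phosphatase of stress kinases, at -0.05.

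**Figure D2:**
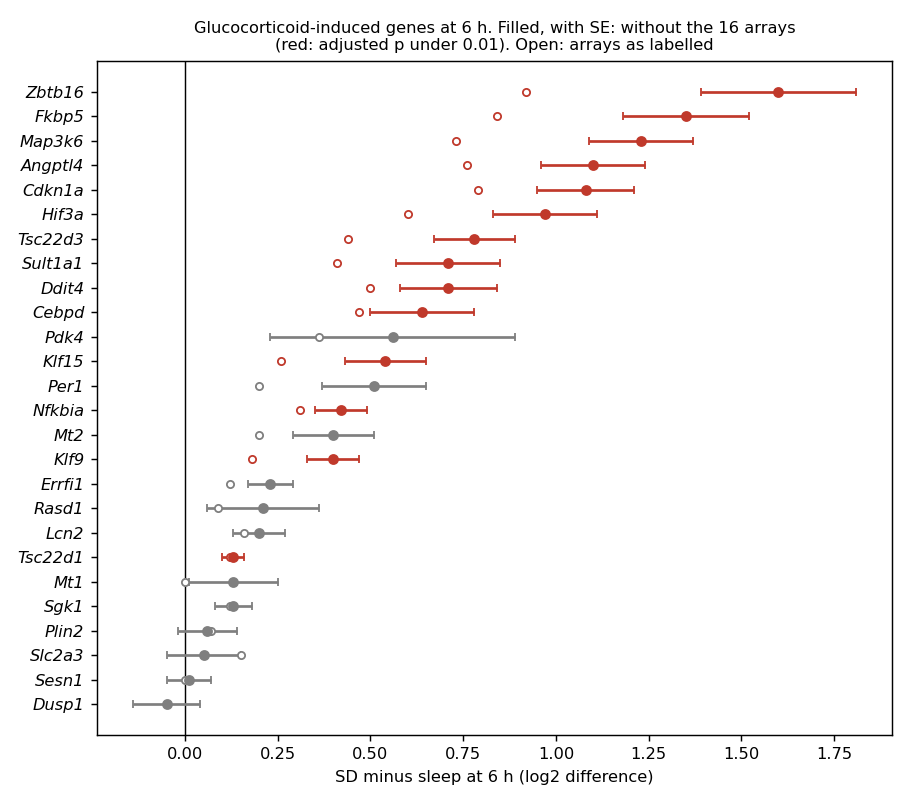
Difference between SD and SS at 6 h (log2, x axis) for the 26 measured glucocorticoid-induced genes. Filled points with SE bars are without the 16 arrays, red where the limma adjusted p was under 0.01, and open points are with the arrays as labelled. The 14 red points run from 0.13 for Tsc22d1 to 1.60 for Zbtb16, and for Zbtb16, Fkbp5 and Map3k6 the open point lies well below the filled one.

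Promoter windows from RefSeq (build GRCm38.p6, from 250 bases before to 50 after each start) were searched on both strands for a short form of the glucocorticoid response element, the letters ACA and TGTTC with 3 free bases between them. Of 32851 windows, 0.971% held it. Of the 26 list members 21 had a window, and Map3k6, Mt1 and Sgk1 (14.3%) held it, as did Fam107a. The share of members counts genes with a match in any of their windows, and the 0.971% counts windows, so they are unlike measures. Among the list members with a match, only Map3k6 was called. The stretches of Map3k6 (chr4:133240621-133240667, plus strand) and Fam107a (chr14:8309867-8309913, minus strand) are shown because these genes were among the 10 largest increases, with the match in capitals, which begins 179 and 116 bases before the start.
Map3k6: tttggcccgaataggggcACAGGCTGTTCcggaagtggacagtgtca
Fam107a: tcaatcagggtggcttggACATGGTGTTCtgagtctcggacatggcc
A match is a run of letters and not a measured binding site. The other list members that rose had no match, or no window, in this table.

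Of the 31 immediate early genes measured, which respond within minutes to growth factors and neural activity, 3 were lower and 0 higher in SD without the 16 arrays, where 1.15% of all genes were lower. They were Egr1, Nr4a1 and Ccn1, and the median of the list was 0.01. Egr1, a zinc finger activator, also passed as labelled, where it ran from 7.14 to 7.92 in SD (median 7.49) and from 7.61 to 9.30 in SS (median 8.60), a difference of -1.06 (SE 0.16, limma adjusted p 0.000451). Array 66 gave the lowest SS value. With the 16 arrays left out, SD lay between 7.14 and 7.57 and SS between 8.28 and 9.30, with no overlap, at -1.33 (SE 0.14, limma adjusted p 5.96e-09), and the difference was -1.22 within the run from 36 to 66 and -1.55 within the run from 67 to 80. The only SS arrays in the run from 67 to 80 were arrays 79 and 80. The baseline arrays left lay between 7.70 and 8.93.

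Nr4a1, which encodes an orphan nuclear receptor, ran from 8.24 to 8.96 in the 7 SD arrays left and from 9.25 to 10.77 in the 6 SS arrays left, a difference of -1.46 (SE 0.19, limma adjusted p 8.09e-07). The groups did not overlap. As labelled it was -1.04 (limma adjusted p 0.0198), with array 74 the highest SD array and array 66 the lowest SS array at 8.80. Ccn1, a secreted matrix protein, fell by 0.59 (SE 0.11). Fos was at -0.70 (limma adjusted p 0.0216), Fosb at -0.47, Junb at -0.42 and Egr3 at -0.33, none of which passed, while Jun was at 0.16 and Klf4 at 0.23.

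Cytosolic chaperones were higher in SD without the 16 arrays in 10 of 38 measured genes and lower in 0, where 2.41% of all genes were higher. The median of the list was 0.15, against 0.11 and 0 calls as labelled, and 6 genes passed without arrays 79 and 80. Fkbp5, described above, is among the 10. Hsph1, which encodes the Hsp110 nucleotide exchange factor, ran from 8.93 to 9.77 in SD (median 9.58) and from 8.23 to 10.48 in SS (median 8.60) as labelled. The value of 10.48 was that of array 66, and no other SS array was above 9.00. Once the 16 arrays were left out, SD lay between 9.17 and 9.77 and the difference was 0.97 (SE 0.12, limma adjusted p 4.2e-07), against 0.60 (limma adjusted p 0.171) as labelled. The 7 baseline arrays left, from 9.06 to 10.22, overlapped SD and lay above SS. Arrays 79 and 80 were the lowest SS arrays kept, and without them the SS mean went from 8.58 to 8.73.

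Hsp90aa1, the inducible form of Hsp90, ran from 11.47 to 11.74 against 10.98 to 11.24 without the 16 arrays, a difference of 0.47 (SE 0.07), with no overlap, and 0.31 (limma adjusted p 0.102) as labelled. Hspb1, the small heat shock protein Hsp27, differed by 0.98 (SE 0.20, limma adjusted p 0.00142) and overlapped between groups, since 1 SD array at 11.19 lay below the highest SS array at 11.48. Its call was lost without arrays 79 and 80 (0.81, limma adjusted p 0.0514), and as labelled it was at 0.68 (limma adjusted p 0.141). The other members that passed were Hspa4l (0.50), the Hsp70-Hsp90 adaptor Stip1 (0.43), Dnaja4 (0.37), Fkbp4 (0.34), Hspa2 (0.31) and the constitutive Hsp70 gene Hspa8 (0.23). Dnaja1 was at 0.15 (limma adjusted p 0.503), Dnajb1 at 0.14, Hspa4 at 0.09 and the mitochondrial Hspd1 at -0.01. Of the 8 CCT chaperonin genes, which fold actin and tubulin, 0 passed in the limma fit and 1 had an unadjusted p under 0.05, with a median of 0.06.

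Of 45 measured genes of folding in the endoplasmic reticulum, 7 were higher and 0 lower without the 16 arrays, where 2.41% of all genes were higher, with a median of 0.07, against 0 calls and a median of 0.05 as labelled. Creld2, an ER disulfide isomerase, ran from 10.12 to 10.73 in SD (median 10.53) and from 9.78 to 10.67 in SS (median 10.03) as labelled, and array 66 was again the highest SS array. Without the 16 arrays the ranges were 10.43 to 10.73 and 9.78 to 10.04, with no overlap. The difference was 0.60 (SE 0.06, limma adjusted p 1.01e-09), and 0.43 (limma adjusted p 0.0118) as labelled.

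Fkbp14, a prolyl isomerase of collagen folding, rose by 0.70 (SE 0.10), Sdf2l1 by 0.56, Hyou1, the ER form of Hsp110, by 0.33, Manf by 0.29 and Calr, the calcium-binding chaperone calreticulin, by 0.19. Hspa5, which encodes the main ER chaperone BiP, lay between 11.53 and 11.95 in SD and between 11.36 and 11.55 in SS. It was 0.25 higher in SD than in SS (SE 0.05, limma adjusted p 0.00231). Its lowest SD array lay below the highest SS array. The baseline arrays left, from 11.47 to 11.88, overlapped SD, and all but the lowest lay above SS. Creld2, Fkbp14 and Hyou1 passed without arrays 79 and 80, while Hspa5 (0.26, limma adjusted p 0.0128), Calr (0.20), Sdf2l1 (0.55) and Manf (0.19) did not. Hsp90b1 (0.23, limma adjusted p 0.0171) and Pdia6 (0.28, limma adjusted p 0.0167) did not pass, and Xbp1, a transcription factor of the ER stress response, was at 0.09. Of the 21 genes of the integrated stress response, the translation arm of ER stress, 0 passed in the limma fit and 6 had an unadjusted p under 0.05.

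The ER stress element, searched on both strands as CCAAT and CCACG with 9 free bases between them, occurred in 0.119% of the 32851 RefSeq windows and in 10 of the 42 list members with a window (23.8%). These were Calr, Canx, Creld2, Derl3, Dnajc3, Ero1b, Hsp90b1, Hspa5, Pdia6 and Syvn1, of which 3 were among the 7 that rose. Here too the share of windows and the share of genes are unlike measures. The stretches of those 3 are shown, Creld2 (chr15:88819502-88819556, plus strand), Hspa5 (chr2:34772007-34772061, plus strand) and Calr (chr8:84847057-84847111, minus strand), with the match in capitals. In Creld2 and Calr the match is on the opposite strand, so the capitals begin with CGTGG.
Creld2: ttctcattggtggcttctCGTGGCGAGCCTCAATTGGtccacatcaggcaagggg
Hspa5: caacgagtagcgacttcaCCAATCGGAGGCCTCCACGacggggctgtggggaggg
Calr: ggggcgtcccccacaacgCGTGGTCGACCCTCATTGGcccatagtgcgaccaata
The 3 matches begin 126, 65 and 162 bases before the start. The heat shock element, searched as GAA, TTC and GAA with 2 free bases between each, occurred in 0.603% of the windows. Of the cytosolic chaperones 37 had a window, and 5 (13.5%) held it. They were Chordc1, Dnajb6, Hspd1, Hspe1 and Hsph1, of which only Hsph1 was called.

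Both cold-inducible RNA-binding protein genes were lower in SD. Rbm3 ran from 11.09 to 11.80 in SD (median 11.32) and from 11.19 to 12.05 in SS (median 12.01) as labelled, a difference of -0.52 (limma adjusted p 0.0195). Arrays 51 and 74 were the highest SD arrays, at 11.63 and 11.80, and array 66 the lowest SS array. Once the 16 arrays were left out, SD lay between 11.09 and 11.36 and SS between 11.81 and 12.05, with the baseline arrays in between, from 11.39 to 11.77, and the difference was -0.74 (SE 0.07, limma adjusted p 1.01e-09). It was -0.72 and -0.75 within the runs from 36 to 66 and from 67 to 80 and -0.76 without arrays 79 and 80, the only SS arrays of the latter run. Cirbp ran from 9.18 to 9.73 in SD and from 9.99 to 10.51 in SS without the 16 arrays, at -0.82 (SE 0.13, limma adjusted p 2.32e-05), and at -0.51 (limma adjusted p 0.173) as labelled.

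Of 22 measured genes of cholesterol synthesis and its control, 10 were lower and 0 higher without the 16 arrays, where 1.15% of all genes were lower, with a median of -0.35, against 0 calls and a median of -0.27 as labelled. Arrays 79 and 80 moved with this list. Its mean level was 0.78 and 0.41 on them, between 0.02 and 0.18 on the other 4 SS arrays kept and between -0.15 and 0.05 on the 7 SD arrays kept. Without those arrays 1 gene passed, where 0.399% of all genes were lower, and the median was -0.18. That gene was Insig1, the sterol sensor that holds back the sterol activator SREBP, which fell by 0.49 (SE 0.08, limma adjusted p 3.49e-05) without the 16 arrays and by 0.30 (limma adjusted p 0.00641) without arrays 79 and 80 as well. Hsd17b7 went from -0.56 to -0.41 (limma adjusted p 0.0183), Fdps from -0.42 to -0.28 and Cyp51 from -0.56 to -0.26.

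Among the 10 largest decreases of genes that passed without the 16 arrays, Gys2, the liver glycogen synthase, came first at -2.31 (SE 0.47, limma adjusted p 0.00101). It ran from 4.45 to 5.34 in SD and from 5.42 to 9.71 in SS, with 9.71 and 8.18 on arrays 79 and 80, and without those arrays the difference was -1.49 (limma adjusted p 0.0935). Paqr9, Amy1, Kynu, Akr1c19 and Pecr, at -1.32 to -1.22, lost their calls in the same way. Egr1, Nr4a1, Serpinb10 and Adgre4 kept theirs. The liver list itself had 0 calls in the limma fit and 2 members with an unadjusted p under 0.05, and its median of -0.85 turned to 0.95 without arrays 79 and 80.

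**Figure D3:**
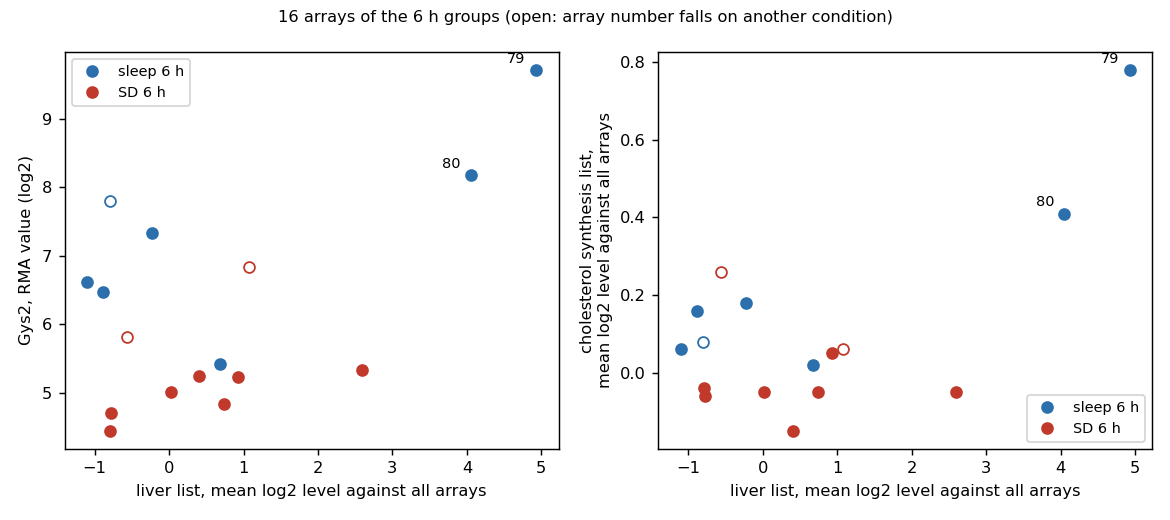
Mean level of the 21 liver genes on each 6 h array (log2 against the mean of all arrays, x axis) against the level of Gys2 (left) and the mean level of the 22 cholesterol synthesis genes (right). Arrays 79 and 80 stand at 4.93 and 4.05 on the x axis and are the highest in both panels, and SD array 50, at 2.59, is the next highest on the x axis.

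Genes of B cells were lower in SD without the 16 arrays in 10 of 16 measured genes, where 1.15% of all genes were lower, with a median of -0.69 and 0 members above 0, against 0 calls and a median of -0.44 as labelled. Ms4a1, which encodes the surface protein CD20, ran from 7.28 to 8.36 in SD and from 8.43 to 9.10 in SS without the 16 arrays, at -0.90 (SE 0.20, limma adjusted p 0.00354). Fcer2a was at -0.88, the complement receptor gene Cr2 at -0.81, the B cell factor Pax5 at -0.80 and the kinase gene Blk at -0.77. As labelled, Ms4a1 was at -0.61 (limma adjusted p 0.279), and arrays 51 and 74, at 8.61 and 9.08, were the highest of the SD arrays. Without arrays 79 and 80 the median was -0.73 and 4 members passed (Blk, Cd72, Cr2 and Ebf1), where 0.399% of all genes were lower.

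The mean level of the B cell list lay between -0.60 and 0.27 in SD and between 0.21 and 0.84 in SS without the 16 arrays, and between -0.60 and 0.58 and between 0.04 and 0.84 as labelled. The mean level of 10 thymus genes, which share Cd4, Cd8b1 and Themis with the T cell list, lay between -0.21 and -0.09 in SD and between -0.01 and 0.26 in SS without the 16 arrays, and reached 0.18 in SD as labelled. Of the 10, 4 had differences above 0, among them the thymocyte genes Rag2 and Ptcra, and 1 passed as lower, where 1.15% of all genes were lower. It was the lipid antigen presenter Cd1d1, which was highest on array 79 and lost its call without arrays 79 and 80. The part of thymus in the B cell result was not tested. Of 15 T cell genes 0 passed in the limma fit and 2 had an unadjusted p under 0.05, with a median of -0.41 (Cd3g at -0.66, limma adjusted p 0.219). Of 14 natural killer and cytotoxic genes 0 passed and 3 had an unadjusted p under 0.05, with a median of -0.20. Of 10 measured genes of antigen presentation 2 were lower and 0 higher, where 1.15% of all genes were lower. They were H2-Eb2 (-0.91) and H2-Ob (-0.73), the latter a B cell partner of class II loading. The classical class II gene H2-Ab1 was at 0.05 (limma adjusted p 0.859) and Cd74 at 0.03.

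Of 21 genes of neutrophils and monocytes, 4 were higher and 2 lower without the 16 arrays, where 2.41% of all genes were higher and 1.15% lower. The median was 0.27, against 0.26 and 0 calls as labelled and 0.13 without arrays 79 and 80. Mmp8, the neutrophil collagenase, ran from 6.74 to 7.09 in SD and from 6.10 to 6.31 in SS, a rise of 0.71 (SE 0.13, limma adjusted p 0.000253), with no overlap, and was at 0.58 (limma adjusted p 0.163) as labelled. Clec4d, a myeloid lectin, rose by 0.55, Chil3 by 0.51 and Trem1, an amplifying receptor of neutrophils, by 0.49. Serpinb10 fell by 1.23 (SE 0.24) and Ifitm6 by 0.69. S100a8, a calcium-binding protein abundant in neutrophils, was at 0.52 (SE 0.18, limma adjusted p 0.0867), and the groups overlapped. Without arrays 79 and 80, Mmp8 and Serpinb10 were the members that passed.

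In the clock, Npas2 was 0.58 higher in SD than in SS (SE 0.10, limma adjusted p 0.000102) without the 16 arrays. Both groups then lay below every baseline array left. As labelled Npas2 was at 0.62 (limma adjusted p 0.425), where arrays 51 and 74 in SD and array 66 in SS stood apart. Bhlhe41, a repressor of the clock activators, was 0.48 lower in SD than in SS (SE 0.10), and both groups lay above every baseline array left. The output factor Hlf was 0.26 lower in SD (SE 0.06). Hlf lost its call without arrays 79 and 80 (limma adjusted p 0.0435). Arntl was at 0.50 (SE 0.14, limma adjusted p 0.0218), Per2 at 0.32 (limma adjusted p 0.0804), Per3 at -0.27 (limma adjusted p 0.0346), Clock at 0.11, Cry1 at 0.07 and Cry2 at 0.10, none of which passed. In the baseline arrays left, Arntl ran from 9.24 to 9.51 and Per2 from 6.84 to 7.51, outside both 6 h groups once the 16 arrays were left out.

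Other lists held fewer calls without the 16 arrays. In collagens and elastic fibres 5 of 28 were higher and 0 lower, where 2.41% of all genes were higher. They were the collagen prolyl hydroxylases P4ha1 (0.44) and P4ha2 (0.46), the lysyl hydroxylase Plod1 (0.36), Eln (0.53), which encodes elastin, and Lox (0.55), its cross-linking enzyme, whereas Col1a1 was at -0.10 and Col3a1 at -0.11. Among 28 chemokines and NF-kB targets Ccl17 (0.70), Cxcl2 (0.54) and Nfkbia rose and Cxcl12 (-0.43) and Nfkbiz (-0.25) fell. Sftpd rose by 0.28 among 16 alveolar type 2 genes, Acot1, a fatty acid thioesterase, by 0.79 among 20 fasting genes, and Gfpt2, of the hexosamine pathway, by 0.57 among 7. Of these genes, all named after their values were seen or among the leading members of their list, Eln, P4ha1, P4ha2, Nfkbia, Cxcl12 and Acot1 also passed without arrays 79 and 80. In the limma fit 0 of 30 proteasome genes and 0 of 30 cell cycle genes passed, with 4 and 1 at an unadjusted p under 0.05.

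**Figure D4:**
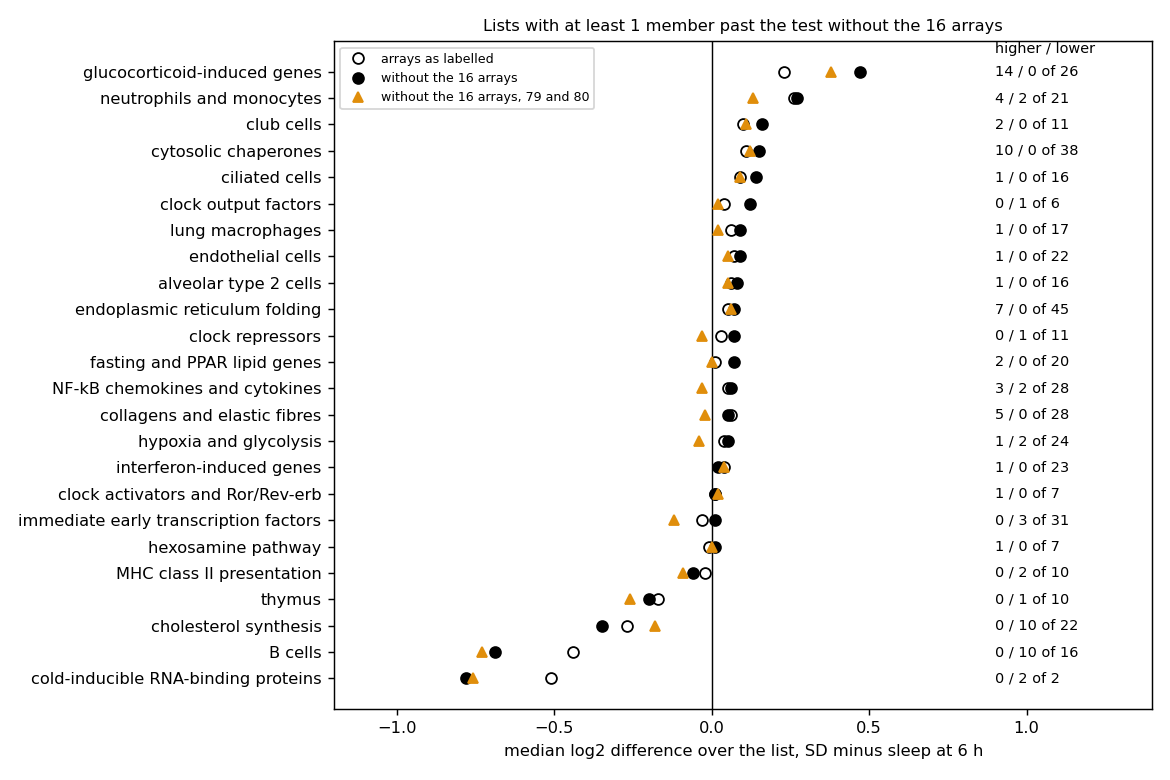
Median difference between SD and SS at 6 h (log2, x axis) for each list with at least 1 member past the test without the 16 arrays. Open circles are with the arrays as labelled, filled circles without the 16 arrays and triangles also without arrays 79 and 80, and the numbers at the right are members higher and lower of those measured. The glucocorticoid-induced list has the highest median, 0.47, and the cold-inducible and B cell lists the lowest, -0.78 and -0.69.

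The difference at 6 h was tested against the difference at 3, 9 and 12 h, which come from other mice. As labelled, 1 gene (0.00531%) differed from 3 h, 0 from 9 h (0%, although 1 probe set without a single gene symbol passed) and 1 from 12 h at a limma adjusted p under 0.01. Without the 16 arrays the counts were 72 (0.383%), 1 (0.00531%) and 57 (0.303%). Of 38 cytosolic chaperones 7 passed this test and of 45 ER folding genes 3, all with a lower difference at 6 h than at 3 h. Hsph1 differed by 2.17 (SE 0.12) at 3 h and by 0.97 at 6 h (limma adjusted p of the test between hours 5.55e-05), Stip1 by 1.07 and 0.43, Hspa5 by 0.70 and 0.25, Manf by 0.79 and 0.29, and Dnaja1, the only gene that passed as labelled, through a probe set other than its brightest, by 1.06 and 0.15 (9.49e-05). Of 21 neutrophil and monocyte genes 7 passed, all with a higher difference at 6 h. S100a8 was at -0.84 (SE 0.17) at 3 h and 0.52 (SE 0.18) at 6 h (limma adjusted p 0.00195), S100a9 at -0.94 and 0.51, Csf3r, the receptor for granulocyte colony-stimulating factor, at -1.01 and 0.27 and Mmp8 at -0.34 and 0.71.

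Against 12 h, glucocorticoid-induced and immediate early genes were among those that differed. Egr1 was at -1.33 at 6 h and 0.27 (SE 0.14) at 12 h (limma adjusted p 4.14e-06, and 0.00536 as labelled), and Nr4a1 at -1.46 and 0.62 (SE 0.19, limma adjusted p 7.35e-06). Fam107a went from 1.59 to 0.07 (limma adjusted p 1.43e-05), Zbtb16 from 1.60 to 0.08, Map3k6 from 1.23 to 0.21, Tsc22d3 from 0.78 to -0.11 and Bcl2l1, an inhibitor of cell death, from 0.66 to -0.12. Fkbp5, at 1.35 and 0.25, missed the threshold (limma adjusted p 0.0138). Rbm3 was at -0.61, -0.74, -0.64 and -0.48 at 3, 6, 9 and 12 h, and no test between hours passed (limma adjusted p 0.51, 0.633 and 0.354). The gene that differed from 9 h was Ciart, a repressor of the clock, at 0.19 at 6 h and -0.66 at 9 h (limma adjusted p 0.00305).

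**Figure D5:**
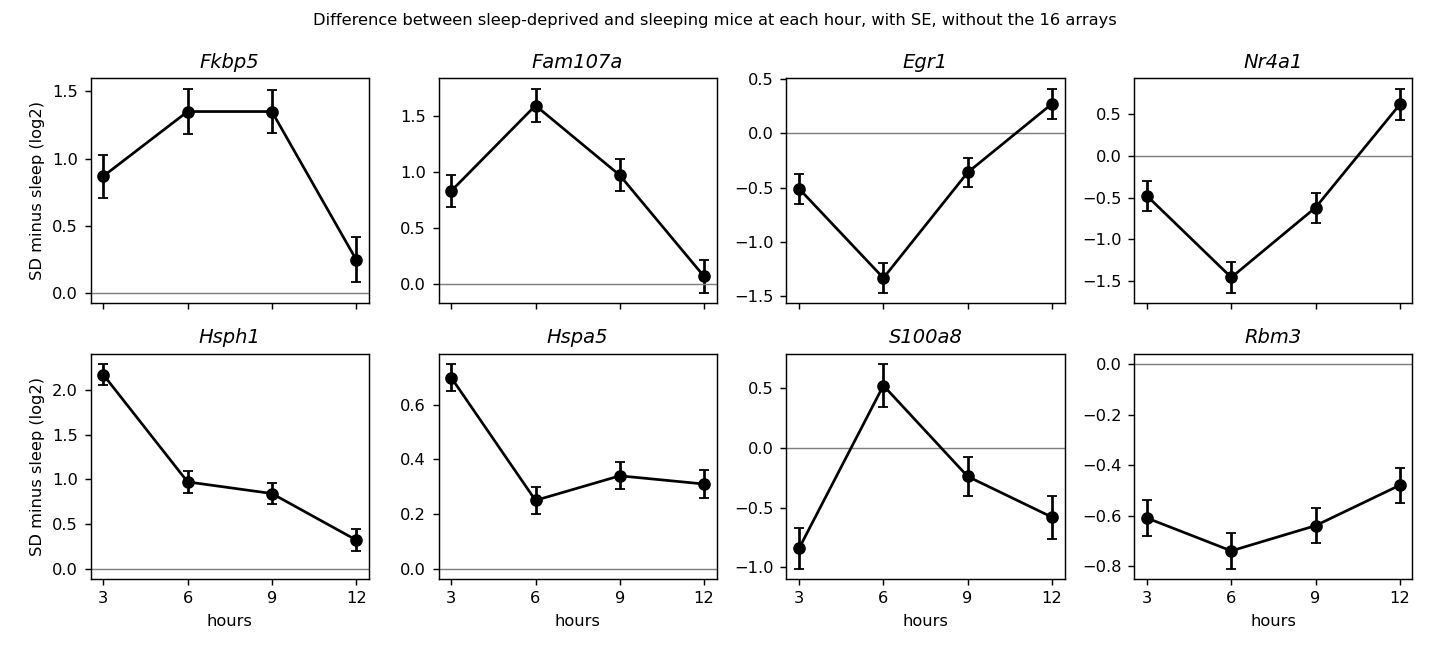
Difference between SD and SS (log2, y axis) with its SE at 3, 6, 9 and 12 h (x axis) for 8 genes, without the 16 arrays. Fkbp5 and Fam107a are near 0 at 12 h, Egr1 and Nr4a1 are lowest at 6 h and above 0 at 12 h, Hsph1 and Hspa5 are highest at 3 h, S100a8 is above 0 only at 6 h among these hours, and Rbm3 is below 0 throughout.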

How the data were processed

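Lung RNA was hybridised to Affymetrix Mouse Gene 1.0 ST arrays. The authors deposited RMA values on the log2 scale (RMA is named, with no version, in the submitters' processing notes), whose decimal point was missing in the deposited table and was restored here, giving values from 2.27 to 13.85. These array values carry no read depth, so precision rests on the number of arrays. Array medians at 6 h ran from 6.64 to 6.77, and replicates correlated at 0.982 to 0.996 (SD) and 0.96 to 0.994 (SS), with 0 identical pairs.

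Group means of the 69 SD and SS arrays were fitted in limma 3.58.1 (R 4.3.3) with Benjamini-Hochberg adjustment over 35556 probe sets, and adjusted p under 0.01 was called. A gene counted if any of its probe sets passed, and its values come from its brightest probe set. The fit was tested on simulated data. Of the 16 arrays left out, 15 were chosen by array number, in an order set with the values known, and array 81, which like array 80 had no place in it, by its values. They left 55 of the 69 SD and SS arrays. Named genes were those called as labelled, the 10 largest increases and decreases among genes called without the 16 arrays, up to 4 leading members of each of 41 lists, genes the study names for lung, and 5 genes per test of hours. Further list members were named after their values were seen. The members and lists were chosen with earlier results of these data known. Alternatives changed the arrays, block, filter, variance model, weights, liver covariate and probe set rule. Figures used matplotlib 3.10.9.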

Additional observations from a re-analysis of the deposited data

Results flagged for a closer look

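Of 64 groups of values examined, 11 held a value far from the others. The groups come from picked genes on the same arrays and are not independent, so no rate by chance is given. In 9 of the 11 groups the value far from the others was that of array 66 among the SS arrays, whose number falls on another condition. Its level was 8.65 for Fam107a (others 7.36 to 7.81), 10.48 for Hsph1 (8.23 to 9.00), 11.86 for Hsp90aa1 (10.98 to 11.24) and 10.67 for Creld2 (9.78 to 10.04). It was 11.93 for Hspa5 (11.36 to 11.55), 11.19 for Rbm3 (11.81 to 12.05), 9.05 for Cirbp (9.99 to 10.51), 9.61 for Npas2 (7.13 to 7.40) and 7.39 for Bhlhe41 (8.36 to 8.82). Array 74 stood apart among the SD arrays for Mmp8, at 5.93 against 6.64 to 7.09. Array 79, which held liver transcripts, stood apart for Ager, at 11.83 against 11.99 to 12.10.

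The difference between SD and SS at 6 h differed from that at another hour in the following genes, which are those named in the text and not all that passed, each given with its log2 difference at 6 h, then at the other hour, then the limma adjusted p of the test between them. As labelled, this was Egr1 (-1.06 and 0.27, 0.00536) against 12 h. Dnaja1 passed against 3 h as labelled through a probe set other than its brightest, whose adjusted p was 0.0114. Without the 16 arrays, the named genes against 3 h were Hsph1 (0.97 and 2.17, 5.55e-05), Hspa5 (0.25 and 0.70, 0.000803), Mmp8 (0.71 and -0.34, 0.0011), S100a8 (0.52 and -0.84, 0.00195), Nfkbia (0.42 and -0.03, 0.00836), Stip1 (0.43 and 1.07, 9.49e-05), Hspa4l (0.50 and 1.16, 0.00253), Dnaja1 (0.15 and 1.06, 9.49e-05), Manf (0.29 and 0.79, 0.000363), Clec4d (0.55 and -0.20, 0.00545), S100a9 (0.51 and -0.94, 0.00202), Csf3r (0.27 and -1.01, 0.00105), Ciart (0.19 and 0.97, 0.00143), Dnajb9 (0.00 and 0.57, 0.000274) and Cckar (0.27 and -0.21, 0.00282). Against 9 h it was Ciart (0.19 and -0.66, 0.00305). Against 12 h they were Tspan11 (0.80 and 0.26, 0.00216), Egr1 (-1.33 and 0.27, 4.14e-06), Zbtb16 (1.60 and 0.08, 0.00491), Map3k6 (1.23 and 0.21, 0.00507), Fam107a (1.59 and 0.07, 1.43e-05), Tsc22d3 (0.78 and -0.11, 0.00149), Nr4a1 (-1.46 and 0.62, 7.35e-06), Insig1 (-0.49 and 0.04, 0.00884), Slc6a2 (0.99 and 0.22, 0.00161), Mettl21e (1.34 and 0.09, 0.0024), Klf15 (0.54 and -0.22, 0.00758), Nfkbia (0.42 and -0.10, 0.00216), Tsc22d1 (0.13 and -0.08, 0.00403), Ciart (0.19 and -0.68, 0.000336), Bcl2l1 (0.66 and -0.12, 0.000175), Nfkbiz (-0.25 and 0.20, 0.00489) and Scel (0.15 and -0.39, 0.00157).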

How the results depend on the processing

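Counts are given as genes higher and lower in SD, then probe sets that differed from 3, 9 and 12 h, then list genes called. As labelled they were 2 and 3, then 4, 1 and 1, then 1. Without the 16 arrays they were 454 and 216, then 91, 2 and 73, then 86. Without arrays 51, 66 and 74 only they were 218 and 113, then 3, 0 and 3, then 52. A fit of the 6 h arrays alone gave 0 and 0 with 0 list genes (3193 probe sets at an unadjusted p under 0.05 in limma), and without those 3 arrays 88 and 59 with 25. Baseline as a ninth group gave 6 and 10, then 8, 1 and 2, then 2. The 4 runs of array numbers as a block gave 15 and 17, 2 against 9 h and 4 list genes, and without the 16 arrays 533 and 271, then 117, 16 and 95, then 94. A mean log2 value of at least 6 gave 4 higher, then 11, 0 and 2, then 2. Array weights gave 10 and 6, then 59, 2 and 3, then 4. The liver level as a covariate gave 6 lower and 0 against 12 h. The brightest probe set per gene gave 4 and 6, then 0, 0 and 2, then 2. Trended variances moved no gene count.

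With the 16 arrays left out as well, and chosen after seeing the data, leaving out arrays 79 and 80 gave 146 and 75, then 59, 0 and 13, then 42. The liver covariate gave 373 and 244, then 197, 2 and 63, then 87. The brightest probe set gave 514 and 272, then 80, 1 and 72, then 95. The filter gave 485 and 233, then 91, 5 and 89, then 90. Trended variances gave 462 and 214, then 92, 2 and 74, then 87. Array weights gave 391 and 275, then 174, 6 and 145, then 86. Within the run of arrays 36 to 66 the counts were 0 and 0 with 0 list genes (2175 probe sets at an unadjusted p under 0.05), and 85 and 42 with 23 without the 16 arrays. Within the run of arrays 67 to 80, whose SS arrays were only 79 and 80, they were 159 and 668 with 58, and 629 and 726 with 110. The causes were not tested.

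Leaving out each 6 h array in turn gave 0 to 38 genes higher, 1 to 25 lower, 4 to 17 probe sets against 3 h, 1 to 1 against 9 h, 0 to 2 against 12 h and 1 to 15 list genes. The highest gene and list counts came without array 66, and the highest count against 3 h without array 79. Over the single genes, 3778 values kept their side of the threshold, 902 passed it only under the alternative, 58 passed it only as labelled, and 0 called values turned their sign. Of 125 genes given in the text, 11 were opposite in sign under at least 1 alternative, and of the 92 that passed without the 16 arrays 0 were. The alternatives reuse the arrays by which the 92 were picked, so this is not an independent check. No paired analysis was possible because replicates are numbered here in accession order only, and array numbers are not shared between groups.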

Other observations

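Epithelial and endothelial lists held few calls without the 16 arrays, where 2.41% of all genes were higher and 1.15% lower. Of 11 club cell genes 2 were higher in SD (the mucin gene Muc5b at 0.50 and Cckar at 0.27), of 16 ciliated cell genes 1 (Rsph4a, of the ciliary radial spoke, at 0.39), and of 22 endothelial genes 1 (Ramp2, a partner of the adrenomedullin receptor, at 0.35). None of these 4 passed without arrays 79 and 80. Among 24 hypoxia and glycolysis genes P4ha1 was higher and Aldoc (-0.42) and Pdk1 (-0.43) were lower, and among 23 interferon-induced genes Oas2 (0.51) was higher. Of 11 alveolar type 1 genes 0 passed in limma, with 4 at an unadjusted p under 0.05 and a median of 0.02. These genes were named after their values were seen.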
